A study of Mus musculus with 2 samples.

Results

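Mast cell spots were the 60 capture spots of each skin section in which transcripts of mast cell proteases made up the largest share of the signal. In each section, spots with at least 500 unique molecular identifiers (UMIs, 1 per captured molecule) were kept and ranked by the summed UMIs of Mcpt4, Cma1, Cpa3 and Tpsb2 over all UMIs of the spot, and ties went to the spot with more UMIs. This gave 60 of 1096 kept spots (5.47%) in the S1pr2fl/fl section and 60 of 947 (6.34%) in the S1pr2fl/fl K14-Cre section, out of 1282 and 981 spots over tissue. A spot is a small area of tissue that can hold several cells of different types, so a mast cell spot is an area with mast cell transcripts and not a cell.

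Both sections came from depilated back skin treated daily with 62.5 mg of 5% imiquimod (IMQ) cream for 7 days, an agent that induces a psoriasis-like dermatitis, in mice aged 8 weeks. The labels give the genotypes as S1pr2 f/f and S1pr2 f/f K14-Cre. Both carry floxed alleles of S1pr2, a receptor for sphingosine 1-phosphate (S1P), and in the second the Cre recombinase is driven by the K14 promoter, which is active in keratinocytes. RNA was read from 10 µm sections of formalin-fixed, paraffin-embedded skin with a probe-based array. There was 1 section per genotype, so no test between genotypes was possible, and the spots of a section are not replicates. All 95% intervals cover counting error only. They are exact Poisson for counts per 1000000 UMIs (CPM), conditional binomial for ratios, Clopper-Pearson for shares, and from the ranks of the spots for medians.

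Mast cells are long-lived immune cells of connective tissue that store proteases, histamine and heparin in granules and release them when IgE bound to the receptor FcεRI meets its antigen. They depend on the receptor Kit and are classed in mice by their proteases. Those of skin are of the connective tissue type and carry chymases, tryptase and carboxypeptidase A3, whereas the mucosal type carries Mcpt1 and Mcpt2. In skin they lie in the dermis and hypodermis, often near vessels and nerves.

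Of the ranking genes, Mcpt4 (mouse mast cell protease 4, chr14:56059744-56062310) and Cma1 (chr14:55941451-55944675) encode chymases and lie on the same chromosome. Cpa3 (chr3:20215616-20242209) encodes carboxypeptidase A3 and Tpsb2 (chr17:25366308-25368096) a tryptase. Coordinates are those of RefSeq for GRCm38.p6, the mm10 assembly. RefSeq promoter windows were matched for 3 of these 4 genes and are shown because these genes define the ranking. Each is given 5′ to 3′ on the strand of its gene, from 250 to 31 bases before the start site of the window. Capitals mark the letters GATAA, the core that GATA factors recognise, or their complement TTATC.
Mcpt4 (chr14:56062341-56062560, minus strand): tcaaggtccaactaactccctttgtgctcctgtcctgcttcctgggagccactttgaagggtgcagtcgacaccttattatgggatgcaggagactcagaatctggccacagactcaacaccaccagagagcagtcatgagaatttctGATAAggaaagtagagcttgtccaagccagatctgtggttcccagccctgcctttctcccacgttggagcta
Cma1 (chr14:55944706-55944925, minus strand): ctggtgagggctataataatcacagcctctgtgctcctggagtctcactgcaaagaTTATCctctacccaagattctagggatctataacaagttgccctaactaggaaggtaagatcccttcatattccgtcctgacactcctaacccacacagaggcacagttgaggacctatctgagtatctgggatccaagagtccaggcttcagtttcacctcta
Cpa3 (chr3:20242212-20242431, minus strand): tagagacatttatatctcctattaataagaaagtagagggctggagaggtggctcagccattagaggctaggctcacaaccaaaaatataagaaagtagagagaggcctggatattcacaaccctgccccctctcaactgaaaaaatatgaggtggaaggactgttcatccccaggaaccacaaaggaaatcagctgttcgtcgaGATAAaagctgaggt
Each window held 1 match, whose first base lay 102 bases before the start site in Mcpt4, 194 in Cma1 and 45 in Cpa3. Over all 32851 windows of the same 220 bases, 20.6% held GATAA on either strand, so a match is common and is a description of the letters only.

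The values that chose the spots are given as a description. In the S1pr2fl/fl section the 4 genes summed to 597 UMIs over the kept spots, in 260 spots (23.7%, 21.2 to 26.4). The 60 mast cell spots held 284 of these UMIs, or 47.6%. The sum was 245 UMIs in 131 spots (13.8%, 11.7 to 16.2) of the S1pr2fl/fl K14-Cre section, and the mast cell spots held 155, or 63.3%. The signal of a single spot was therefore low, with 1 to 22 UMIs of the 4 genes per mast cell spot (median 4) in the S1pr2fl/fl section and 1 to 6 (median 2) in the S1pr2fl/fl K14-Cre section. Of the 60 spots, 6 and 16 were chosen on a single UMI. The spot of rank 1 held 22 of 4869 UMIs in the S1pr2fl/fl section and 2 of 650 in the S1pr2fl/fl K14-Cre section. Just inside the threshold, rank 60 held 4 of 5292 UMIs (7.56 per 10000) and 3 of 5438 (5.52 per 10000). Just outside it, rank 61 held 5 of 6839 (7.31 per 10000) and 2 of 3652 (5.48 per 10000), so the ranking had no gap there. Outside the mast cell spots, 200 and 71 spots still held at least 1 UMI of the 4 genes.

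Cma1 was the most abundant of the 4, with 155 UMIs in the S1pr2fl/fl mast cell spots (722 CPM) and 67 in the S1pr2fl/fl K14-Cre mast cell spots (450 CPM). Mcpt4 had 80 UMIs (373 CPM) and 40 UMIs (269 CPM). Tpsb2 had 26 UMIs (121 CPM) and 31 UMIs (208 CPM), and Cpa3 had 23 UMIs (107 CPM) and 17 UMIs (114 CPM). Chymase transcripts thus made up most of the signal in both sections, and Tpsb2 accounted for 9.15% of the UMIs of the 4 genes in the S1pr2fl/fl spots and 20% in the S1pr2fl/fl K14-Cre spots. Levels of different genes also depend on their probes and are not set against each other further. Of the S1pr2fl/fl mast cell spots, 20 held 1 of the 4 genes, 26 held 2, 12 held 3 and 2 held all 4. These numbers were 39, 17, 3 and 1 among the S1pr2fl/fl K14-Cre mast cell spots. Both chymases were found together in 28 and 10 spots, and a chymase together with Cpa3 or Tpsb2 in 24 and 13.

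Mast cell spots were not deeply covered spots. Their median was 3509.5 UMIs (2604 to 4049) against 4399.5 (4067 to 4650) in the remaining spots of the S1pr2fl/fl section, and 1909.5 (1576 to 2856) against 2395 (2269 to 2555) in the S1pr2fl/fl K14-Cre section. The ranking divides by the UMIs of the spot, and its part in these medians was not tested.

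**Figure D1:**
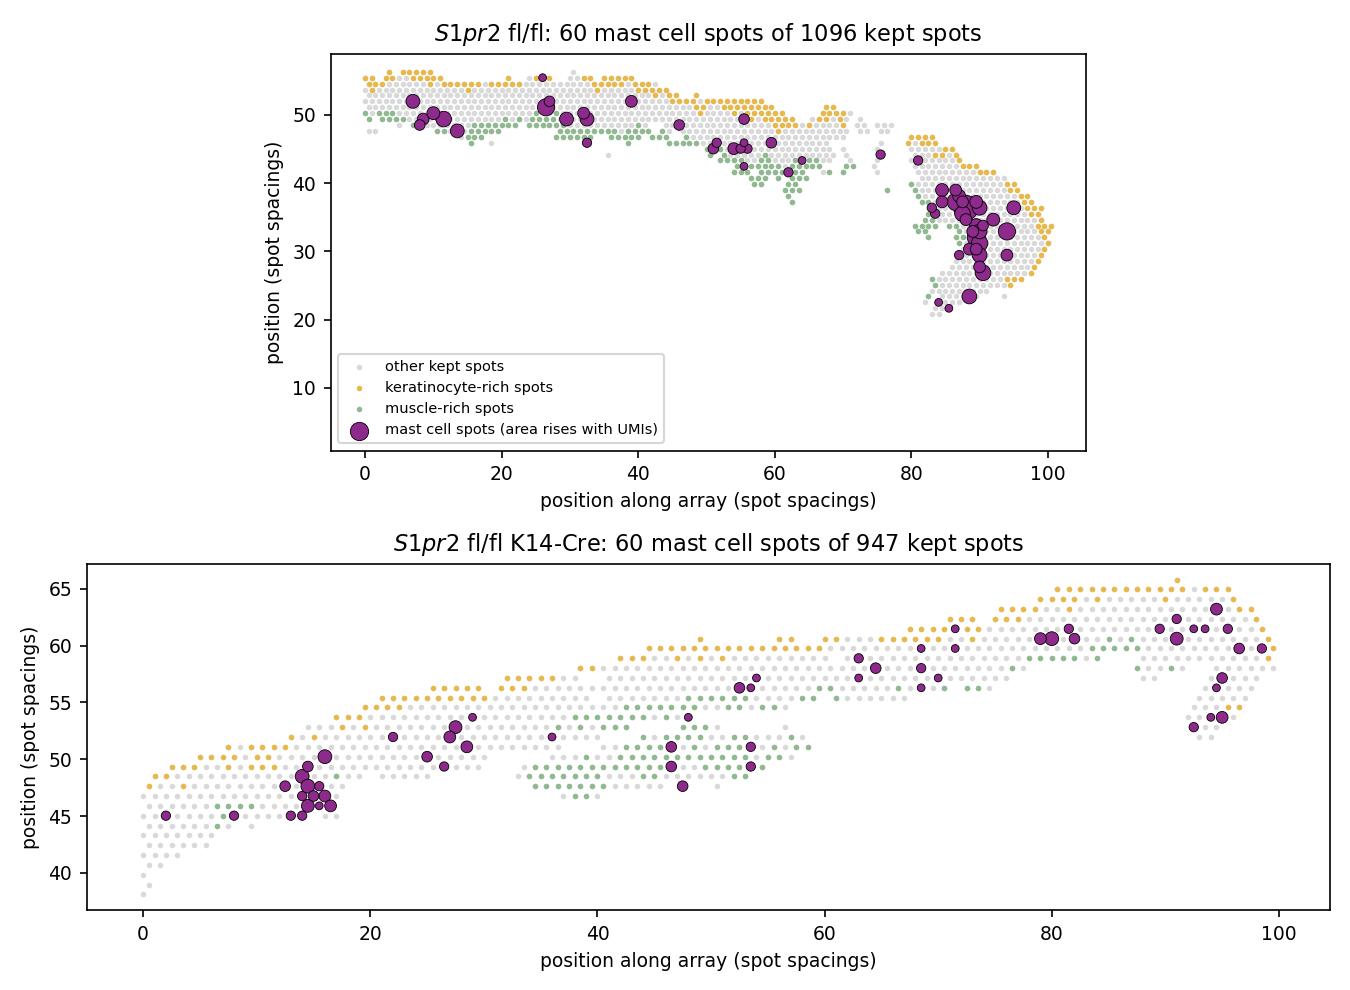
Position of every kept spot in the 2 sections, in spot spacings on both axes. Purple circles are the 60 mast cell spots of each section, with an area that rises with the UMIs of the 4 ranking genes (1 to 22 and 1 to 6), yellow spots are the 15% richest in keratinocyte transcripts and green spots the 15% richest in muscle transcripts. The kept spots of the S1pr2fl/fl section fall into groups that do not touch, and 33 of its 60 mast cell spots are in the smaller group on the right.

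The depth of the mast cell spots was measured between the epidermis and the muscle layer beneath the skin. Spots among the 15% richest in keratinocyte genes stood for the epidermis and those among the 15% richest in skeletal muscle genes for the muscle. The depth quotient of a spot is its distance to the nearest keratinocyte-rich spot over the sum of its distances to the nearest keratinocyte-rich and muscle-rich spots, so it is 0 in the epidermis and 1 in the muscle. Distances are in spot spacings. With a spot diameter of 55 µm, the image scale of the files gives 91.2 µm per spacing, which is not the nominal pitch of the array, so distances are not given in µm.

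Mast cell spots of the S1pr2fl/fl section lay deeper than the remaining spots. Their median distance from the keratinocyte-rich spots was 5.20 spacings (4.36 to 6.08), against 3.0 (2.65 to 3.46) in the remaining spots. Their median distance from the muscle-rich spots was 2.65 spacings (1.73 to 3.0), against 3.61 (3.46 to 4.0). The median depth quotient was 0.694 (0.604 to 0.743), against 0.447 (0.399 to 0.5), and the middle 50% of the mast cell spots lay between 0.526 and 0.793. These intervals did not overlap, although spots next to each other are not independent. The excess of 0.247 in the quotient was 0.139 when spots were ranked by summed UMIs in place of the share. Spots of both deep bands of this section had medians of 3708 and 3407 UMIs and those of both bands next to the epidermis 4755 and 5511, and the part of this in the depth of spots ranked by a share was not tested.

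By the depth quotient, mast cell spots of the S1pr2fl/fl K14-Cre section lay in the middle of the skin, and their median did not differ from that of the remaining spots beyond these intervals. Their median distance from the keratinocyte-rich spots was 3.23 spacings (2.65 to 3.61), against 2.65. The median depth quotient was 0.5 (0.417 to 0.602), against 0.454 (0.419 to 0.5). The spread was narrower, however, with the middle 50% of mast cell spots between 0.356 and 0.653 and that of the remaining spots between 0.207 and 0.800. The array columns gave a different result. In this section they run from epidermis to muscle, with keratinocyte genes at 37616 CPM in the outer and 3940 CPM in the inner part. The median position of the mast cell spots along them, from 0 to 1, was 0.613 (0.5 to 0.714), against 0.444 (0.417 to 0.5) in the remaining spots, so by this measure they lay deeper.

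The epidermis was nearly free of mast cell spots in both sections. Only 1 of 60 (1.67%, 0.0422 to 8.94) was itself keratinocyte-rich in each section, against 15.7% of the remaining S1pr2fl/fl spots and 15.9% of the remaining S1pr2fl/fl K14-Cre spots. Among the muscle-rich spots the shares were closer, with 7 mast cell spots (11.7%, 4.82 to 22.6) against 15.2% of the remaining spots in the S1pr2fl/fl section and 6 (10.0%, 3.76 to 20.5) against 15.3% in the S1pr2fl/fl K14-Cre section.

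When the skin was divided into 5 bands of the depth quotient, mast cell spots made up 0.952%, 2.19%, 8.61%, 14.4% and 5.49% of the spots of each band from the epidermis to the muscle in the S1pr2fl/fl section. The peak was in the band from 0.6 to 0.8, which held 25 of the 60. The shares were 1.81%, 8.25%, 11.9%, 9.03% and 3.86% in the S1pr2fl/fl K14-Cre section, with the peak in the band from 0.4 to 0.6. The level of the 4 genes over all kept spots of a band had its peak in the same bands. The mast cell spots hold 47.6% and 63.3% of these UMIs, so this is not independent of the choice of spots. It was 30.8, 88.9, 165, 297 and 123 CPM in the S1pr2fl/fl section and 32.0, 122, 147, 110 and 54.2 CPM in the S1pr2fl/fl K14-Cre section. The band from 0.6 to 0.8 of the S1pr2fl/fl section (258 to 341 CPM) stood above every other band of either section, the next being 165 CPM (136 to 197).

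**Figure D2:**
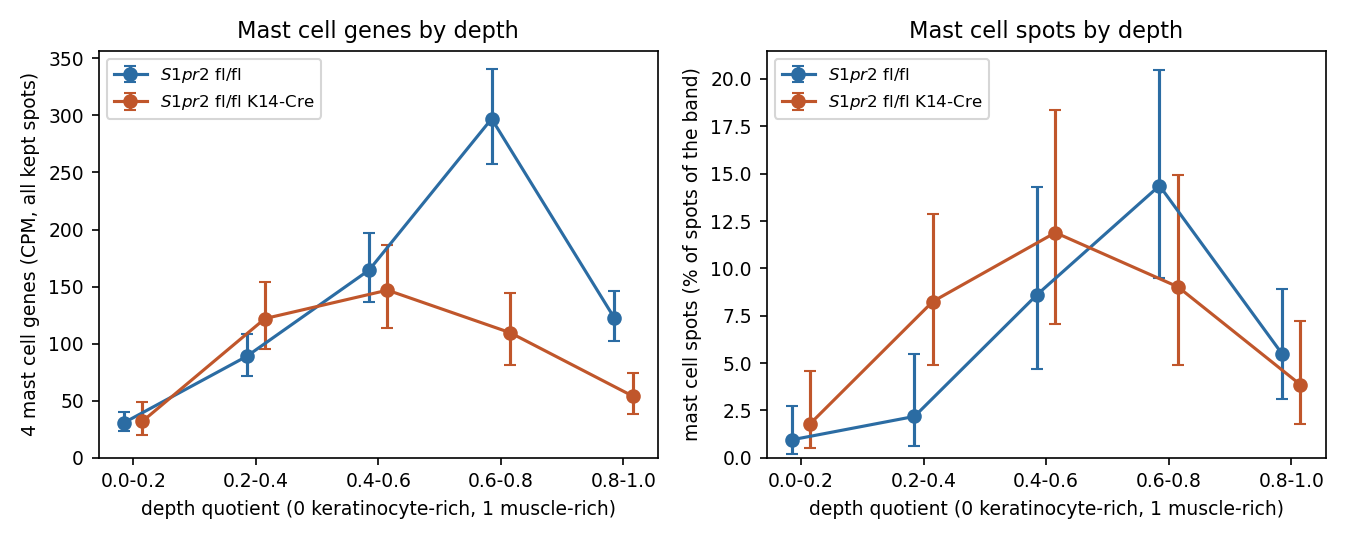
Left, CPM of the 4 ranking genes summed over all kept spots of each depth band, with exact Poisson 95% intervals. Right, share of the spots of each band that are mast cell spots, with Clopper-Pearson 95% intervals. The x axis runs from keratinocyte-rich to muscle-rich spots, blue is S1pr2fl/fl and orange S1pr2fl/fl K14-Cre. The blue curve has its peak at 297 CPM in the fourth band and the orange curve at 147 CPM in the third.

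Along both sections the mast cell spots were uneven. In 8 segments along the array they made up 0.870% to 9.35% of the spots in the S1pr2fl/fl section. These shares were 1.72% to 13.6% in the S1pr2fl/fl K14-Cre section. The 4 genes ran from 9.94 to 210 CPM and from 42.8 to 163 CPM over these segments. Kept spots of the S1pr2fl/fl section that touch formed a larger group of 700 spots and a smaller group of 367 spots. These groups are joined by shallower spots over tissue, since with the spots under 500 UMIs included all 60 mast cell spots lay in 1 connected group of 1203 spots. The larger group held 26 mast cell spots (3.71% of its spots) and the smaller group 33 (8.99%). The 4 genes reached 74.4 CPM (65.5 to 84.2) in the larger and 186 CPM (167 to 207) in the smaller group, at nearly the same median of 4431.5 and 4423 UMIs per spot. The S1pr2fl/fl K14-Cre section, a single group, stood between them at 86.4 CPM (75.9 to 97.9). The deep position was found in both groups. The median depth quotient of the mast cell spots was 0.726 against 0.5 in the remaining spots of the larger group and 0.650 against 0.360 in the smaller group.

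Mast cell spots often lay next to each other. Of those of the S1pr2fl/fl section, 34 of 60 (56.7%, 43.2 to 69.4) touched another mast cell spot, against 20.4% (18.0 to 23.0) of the remaining spots that touched one. Of those of the S1pr2fl/fl K14-Cre section, 27 of 60 (45.0%, 32.1 to 58.4) did, against 23.8% (21.0 to 26.7). They formed 36 and 41 patches, of which the largest held 9 and 12 spots and 26 and 33 were single spots. Mast cell spots were also concentrated in certain depth bands and segments, and the part of this in their touching was not tested. The ranking sets a high level of the 4 genes in the mast cell spots and a low one outside them. The level was 1323 CPM in the mast cell spots of the S1pr2fl/fl section, 141 CPM (117 to 168) at 1 step and 89.2 CPM at 2 steps, and 29.3 and 32.3 CPM at 3 and at 4 or more steps. Over the same steps it was 1041, 52.5, 28.1, 32.8 and 24.1 CPM in the S1pr2fl/fl K14-Cre section. Over all kept spots of the S1pr2fl/fl section it was 113 CPM.

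The label was then checked with mast cell genes that the ranking did not use. Of 41 such genes listed, 39 had at least 10 UMIs over both sections. Summed, they were 1.61-fold (1.47 to 1.77) higher in the mast cell spots than in the remaining spots of the S1pr2fl/fl section and 1.31-fold (1.16 to 1.48) in the S1pr2fl/fl K14-Cre section. The 1226 genes of chemosensory (olfactory, vomeronasal, taste and trace amine) receptors are known mainly from sensory organs. Their summed ratios were 1.18 (1.09 to 1.27) and 1.17 (1.11 to 1.24). The S1pr2fl/fl interval of the mast cell genes lay above that of these receptors, but the S1pr2fl/fl K14-Cre intervals overlapped. Of the 39 genes, 15 and 13 were at least 2-fold higher, 6 of them in both sections, and 9 and 9 were at most 0.5-fold. Most rest on few UMIs. Among all 18968 other genes at the same minimum of 10 UMIs, 16.6% and 16.4% were at least 2-fold higher, and 4% in both sections, while 29% and 30.6% were at most 0.5-fold. Among all 5653 genes with at least 100 UMIs in each section, 6.99% and 5.18% were at least 2-fold higher. Of the 8 mast cell genes that meet this minimum, 2 were at least 2-fold higher in the S1pr2fl/fl section and 1 in the S1pr2fl/fl K14-Cre section. For 11 and 6 of the 39 genes the interval of the ratio lay above 1, where 9.81% and 8.09% of the genes at this minimum did. It did so in both sections for 4, namely Kit, Fcer1a, Alox5 and Alox5ap, against 1.75% of the genes.

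Among the receptors, Kit, the receptor for stem cell factor on which mast cells depend, had 8 UMIs in the 60 mast cell spots and 45 in the 1036 remaining spots of the S1pr2fl/fl section (ratio of CPM 4.19, 1.71 to 8.98). It had 6 and 28 UMIs in the S1pr2fl/fl K14-Cre section (3.87, 1.31 to 9.52). Fcer1a, the IgE-binding α chain of FcεRI, had 15 and 25 UMIs in the S1pr2fl/fl section (14.1, 6.93 to 27.9) and 8 and 38 in the S1pr2fl/fl K14-Cre section (3.80, 1.53 to 8.27). Both genes were thus higher in the mast cell spots of both sections. Ms4a2, the β chain of the same receptor, had 5 and 10 UMIs in the S1pr2fl/fl section (11.8, 3.16 to 37.8), but 0 and 30 in the S1pr2fl/fl K14-Cre section, where the upper limit of the ratio was 2.36. Fcer1g, the γ chain, which macrophages and other myeloid cells share, had 127 UMIs (1.82, 1.51 to 2.18) and 77 UMIs (1.17, 0.919 to 1.48) in the mast cell spots. Csf2rb, the common β receptor of IL-3 and GM-CSF, had 7 UMIs (4.46, 1.68 to 10.1) and 2 UMIs (1.20, 0.139 to 4.74). Mrgprb2, the receptor for cationic peptides on connective tissue mast cells, and Il1rl1, the receptor for IL-33, had 1 UMI each in the S1pr2fl/fl mast cell spots and 1 and 2 in the S1pr2fl/fl K14-Cre mast cell spots.

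The counts of Kit, Ms4a2 and Fcer1a came almost wholly from the smaller group of touching spots of the S1pr2fl/fl section, although the larger group held 26 of its mast cell spots. All 8 UMIs of Kit, all 5 of Ms4a2 and 13 of 15 of Fcer1a lay in mast cell spots of the smaller group. In the larger group the mast cell spots held 0 UMIs of Kit and Ms4a2 and 2 of Fcer1a. The upper limit of the Kit ratio there was 5.25, so a ratio like that of the whole section was not excluded at this depth.

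Of the further mast cell proteases, Tpsg1, a membrane-bound tryptase, had 5 UMIs (2.27, 0.706 to 5.64) in the S1pr2fl/fl mast cell spots and 7 (5.74, 2.07 to 13.9) in the S1pr2fl/fl K14-Cre mast cell spots. Tpsab1, a granule tryptase, had 1 UMI (1.31, 0.0314 to 8.29) and 4 UMIs (5.55, 1.32 to 18.0). The mucosal genes Mcpt1 and Mcpt2 had 1 and 1 UMIs in the S1pr2fl/fl mast cell spots and 1 and 2 in the S1pr2fl/fl K14-Cre mast cell spots. The remaining spots held 20 and 14 and 33 and 14. Gzmb, a granzyme that cytotoxic lymphocytes also carry, had 5 UMIs (4.71, 1.41 to 12.5) and 1 UMI (0.950, 0.0229 to 5.98).

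Of the enzymes of lipid mediators, Alox5, the 5-lipoxygenase that opens leukotriene synthesis, was 4.01-fold higher (2.49 to 6.21; 24 UMIs) in the S1pr2fl/fl mast cell spots and 3.33-fold (1.74 to 5.93; 14 UMIs) in the S1pr2fl/fl K14-Cre mast cell spots. Its partner Alox5ap was 2.03-fold (1.68 to 2.45) and 2.04-fold (1.53 to 2.68) higher. Both are also expressed by macrophages and neutrophils. Hpgds, the prostaglandin D synthase of mast cells, had 4 UMIs (3.14, 0.804 to 8.92) and 0 UMIs. The sum of these 6 genes was 1.99-fold (1.69 to 2.33) and 1.88-fold (1.47 to 2.36) higher, but Alox5ap made up 121 of 168 and 59 of 81 of its UMIs in the mast cell spots. Ptgs1, a cyclooxygenase, had ratios of 0.793 (0.392 to 1.44) and 1.08 (0.388 to 2.44), and Cyp11a1 had 5 UMIs (2.74, 0.847 to 6.91) and 0 UMIs.

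The genes of amines and granules did not follow as a group, with ratios of 1.04 (0.868 to 1.25) and 0.982 (0.771 to 1.24) over 8 genes. Vamp8 made up 71 of 128 and 49 of 77 of these UMIs in the mast cell spots, with ratios of 0.887 (0.690 to 1.12) and 0.950 (0.698 to 1.27). Slc18a2 had 3 UMIs (2.14, 0.420 to 6.83) and 2 UMIs (0.802, 0.0943 to 3.07). Tph1 had 2 UMIs (3.37, 0.371 to 14.7) and 1 UMI (0.602, 0.0148 to 3.62). Hdc, which makes histamine, had 2 UMIs in the S1pr2fl/fl mast cell spots against 55 in the remaining spots (0.857, 0.101 to 3.25), and 0 against 36 in the S1pr2fl/fl K14-Cre section (upper limit 1.95). Ndst2, an enzyme of heparin synthesis, was 2.83-fold higher (1.79 to 4.30) and 1.56-fold (0.761 to 2.89). Srgn, the core protein of the granule proteoglycan, had ratios of 1.88 (1.09 to 3.04) and 1.19 (0.535 to 2.34). Rab27b, a small GTPase of secretory granules, was lower in the S1pr2fl/fl mast cell spots, at 0.321 (0.104 to 0.756), and had 0 UMIs in the S1pr2fl/fl K14-Cre mast cell spots (upper limit 1.58).

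Transcription factors and signalling adaptors varied in level. Gata1 had 0 UMIs in the mast cell spots of both sections, and Gata2, which mast cells need, had 1 in each. Mitf, a transcription factor of mast cells and melanocytes, had 10 UMIs (1.73, 0.813 to 3.29) and 2 UMIs (0.280, 0.0335 to 1.03). Lat2, an adaptor that other leukocytes also use, had 4 UMIs (0.934, 0.25 to 2.46) and 11 UMIs (1.87, 0.908 to 3.49). Btk, a kinase downstream of FcεRI that other myeloid cells and B cells also use, had 12 UMIs (6.43, 3.09 to 12.4) in the S1pr2fl/fl mast cell spots and 2 (2.41, 0.267 to 10.4) in the S1pr2fl/fl K14-Cre mast cell spots. To judge such counts, the 1226 olfactory, vomeronasal, taste and trace amine receptor genes, known mainly from sensory organs, were used. They gave a mean of 0.555 UMIs per gene in the 60 S1pr2fl/fl mast cell spots and 1.03 in the 60 S1pr2fl/fl K14-Cre mast cell spots. Their 95th percentiles were 2.75 and 4 UMIs. Kit and Fcer1a lay above these percentiles in both sections, Ms4a2 in the S1pr2fl/fl section only, and Hdc, Gata1, Gata2 and Mrgprb2 in neither. These counts lay in few of the 60 spots, those of Kit in 6 and 3, those of Fcer1a in 8 and 5 and those of Ms4a2 in 2 and 0. Kit and Fcer1a thus went with the label mast cell in sum over the spots and not spot by spot, and other mast cell genes did not. The ratio of the defining gene Hdc was not above 1 in either section. In the S1pr2fl/fl K14-Cre mast cell spots Ms4a2 and Hpgds had 0 UMIs, against 30 and 22 in the remaining spots. The 6 UMIs of Kit there equalled the 99th percentile of the chemosensory genes, 6 UMIs. In the S1pr2fl/fl section the counts of Kit and Fcer1a came mostly from the smaller group of touching spots.

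Genes of basophils and eosinophils, which share receptors with mast cells, had few UMIs. The 3 measured basophil genes summed to 4 UMIs in the S1pr2fl/fl mast cell spots (1.43, 0.378 to 3.83) and 7 in the S1pr2fl/fl K14-Cre mast cell spots (2.48, 0.949 to 5.48). Mcpt8, the protease that marks basophils, had 1 and 3 UMIs. The 4 measured eosinophil genes summed to 9 UMIs (3.93, 1.71 to 8.02) and 7 UMIs (1.11, 0.436 to 2.36). Epx, the eosinophil peroxidase, accounted for 5 of the 9, in 2 spots, against 9 UMIs in the remaining spots (13.1, 3.45 to 43.5), and had 0 against 25 in the S1pr2fl/fl K14-Cre section.

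The surroundings of the mast cell transcripts were described with 27 lists of genes of skin cell types and mast cell functions. Of these, 13 had a summed ratio above 1 in both sections, 10 with both intervals above 1, and 4 had both intervals below 1. The 1226 chemosensory receptor genes had summed ratios of 1.18 (1.09 to 1.27) and 1.17 (1.11 to 1.24). A summed ratio of this size was thus also found in genes known mainly from sensory organs. The smooth muscle list lay below these ratios in both sections. Over all 5653 genes the median log2 ratio was 0.05 in the S1pr2fl/fl and -0.06 in the S1pr2fl/fl K14-Cre section.

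**Figure D3:**
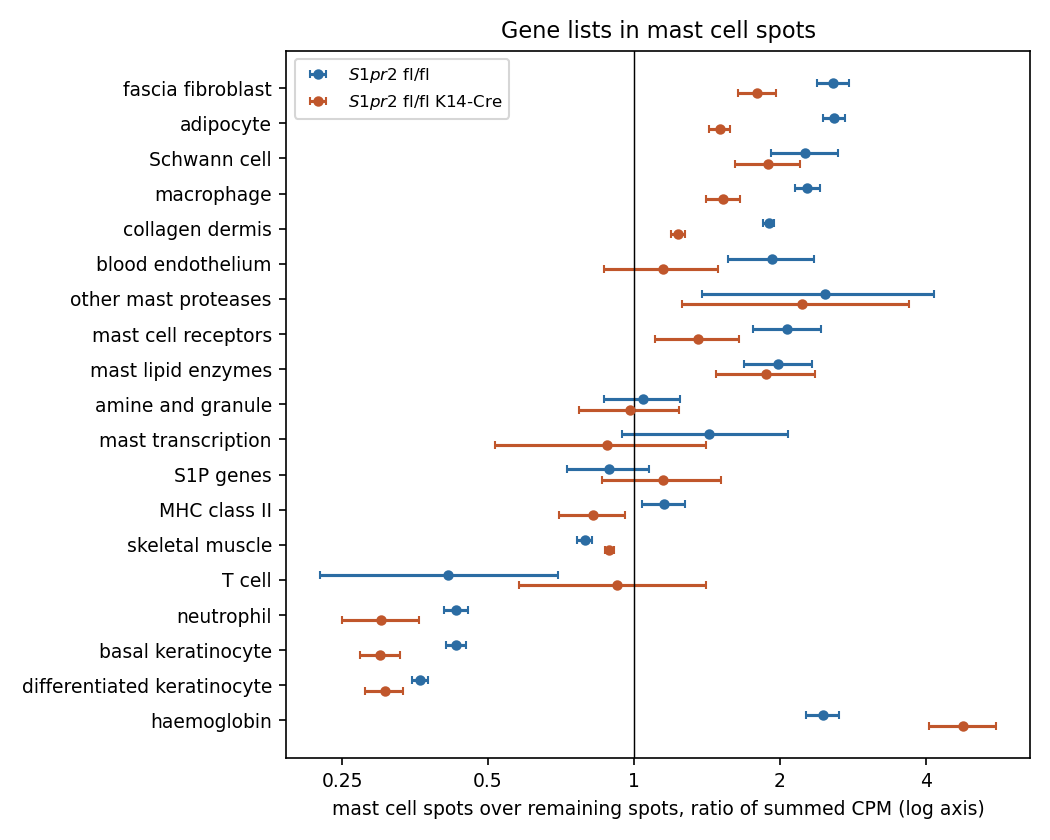
Ratio of summed CPM in the 60 mast cell spots over the remaining spots of the same section for 19 lists of genes, on a log axis, with conditional binomial 95% intervals. Blue is S1pr2fl/fl, orange S1pr2fl/fl K14-Cre, and the vertical line marks a ratio of 1. Fascia, adipocyte, Schwann cell, macrophage and collagen genes lie to the right of the line in both sections and keratinocyte genes to the left; the haemoglobin values rest on a few spots.

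Macrophage genes were higher in mast cell spots of both sections, 2.28-fold (2.15 to 2.42) in the S1pr2fl/fl and 1.53-fold (1.41 to 1.66) in the S1pr2fl/fl K14-Cre section. Of 10 members with at least 100 UMIs in each section, all 10 lay above 1 in both, where 53.3% of all genes did in the S1pr2fl/fl section, 46.5% in the S1pr2fl/fl K14-Cre section and 29% in both. At least 2-fold higher were 8 and 1 of the 10, against 6.99% and 5.18% of all genes. Cd163, the haemoglobin scavenger receptor of resident macrophages, reached 401 CPM against 157 (ratio 2.56, 2.02 to 3.20) and 322 against 128 (2.52, 1.82 to 3.41). Mrc1, the mannose receptor, had ratios of 1.67 (1.36 to 2.03) and 1.93 (1.55 to 2.38). C1qc, a chain of complement C1q, had 2.84 (2.47 to 3.26) and 1.30 (1.04 to 1.61). The level of this list moved with depth. Against touching spots the ratio was 1.29 and 1.13, and against remaining spots weighted to the same depth bands 1.48 and 1.23. Macrophage genes were lower with each step away from the mast cell spots, from 5562 to 4296, 3243, 2246 and 1420 CPM in the S1pr2fl/fl section and from 4366 to 3874, 3340, 2546 and 1958 CPM in the S1pr2fl/fl K14-Cre section. Macrophages also express Fcer1g, Alox5 and Alox5ap, and the part of macrophages in the ratios of these genes was not tested.

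Connective tissue of the deep dermis and fascia was also represented. Fascia fibroblast genes were 2.58-fold (2.38 to 2.78) and 1.80-fold (1.64 to 1.96) higher. Pi16, a marker of adventitial and fascia fibroblasts, reached 377 CPM against 160 (2.35, 1.85 to 2.96) and 376 against 121 (3.12, 2.31 to 4.15). Clec3b, which encodes tetranectin, had ratios of 2.80 (2.39 to 3.25) and 1.92 (1.61 to 2.27). Other members did not follow in both sections. Mfap5, a microfibril protein, had 2.67 (1.64 to 4.16) and 0.631 (0.202 to 1.51), and Dpp4 had 1.02 (0.370 to 2.29) and 2.82 (1.29 to 5.53). Against touching spots the ratio of the fascia list was 1.34 and 1.38, and at matched depth it was 1.5 in both. Collagen and matrix genes were 1.90-fold (1.85 to 1.95) and 1.23-fold (1.19 to 1.27) higher. At matched depth the collagen ratio was 1.37 in the S1pr2fl/fl section and 0.945 in the S1pr2fl/fl K14-Cre section, the latter opposite in direction to the comparison with all remaining spots.

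Adipocyte genes were 2.59-fold (2.45 to 2.73) and 1.5-fold (1.43 to 1.58) higher. Plin1, the coat protein of lipid droplets, had ratios of 3.32 (2.51 to 4.33) and 2.26 (1.45 to 3.38), and Adipoq, the hormone adiponectin, 3.03 (2.20 to 4.10) and 2.23 (1.54 to 3.15). Fabp4, a fatty acid carrier that macrophages and endothelium also express, had 3.43 (3.03 to 3.86) and 1.82 (1.58 to 2.08). Against touching spots the ratio of the adipocyte list was 1.39 and 1.25, and at matched depth 1.36 and 1.38.

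Schwann cell genes were 2.26-fold (1.92 to 2.64) and 1.89-fold (1.62 to 2.20) higher. Pmp22, a myelin protein that fibroblasts also express, had ratios of 2.43 (1.92 to 3.04) and 2.06 (1.58 to 2.64). Against touching spots the list had ratios of 1.21 and 1.45 and at matched depth 1.39 and 1.47. The signal was uneven, with 44.8% and 49.5% of the UMIs of the list in 5 of the 60 spots.

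Blood endothelial genes were 1.93-fold (1.56 to 2.36) higher in the S1pr2fl/fl mast cell spots, and the ratio was 1.15 (0.866 to 1.49) in the S1pr2fl/fl K14-Cre mast cell spots. Touching spots had nearly the same level. In the S1pr2fl/fl section it was 484 CPM (396 to 587) in the mast cell spots and 450 CPM (406 to 497) at 1 step. In the S1pr2fl/fl K14-Cre section it was 396 and 388 CPM. Vwf, von Willebrand factor, reached 140 CPM against 34.8 (4.02, 2.63 to 5.94) in the S1pr2fl/fl section and 80.6 against 50.2 (1.60, 0.809 to 2.90) in the S1pr2fl/fl K14-Cre section. Vwf had the highest ratio of the list in the S1pr2fl/fl section, and the members varied. Pecam1, an adhesion molecule of endothelium, had ratios of 2.24 (1.28 to 3.69) and 0.918 (0.184 to 2.82). Kdr, the VEGF receptor, had 2.21 (0.981 to 4.37) and 0.401 (0.0817 to 1.20), and Egfl7 had 1.79 (1.16 to 2.65) and 0.883 (0.397 to 1.71). Cldn5, a tight junction protein, had 0.429 (0.0513 to 1.59) and 2.97 (1.56 to 5.27), and Emcn had 0 UMIs in the mast cell spots of both sections against 31 and 30 in the remaining spots. Smooth muscle and pericyte genes had summed ratios of 1.16 (1.06 to 1.27) and 1.10 (1.01 to 1.19), but Des, which skeletal muscle also expresses, made up 306 of 507 and 555 of 646 of these UMIs, with ratios of 0.826 and 1.05. The median log2 ratio of the list was 1.74 and 0.66. Acta2, smooth muscle actin, had ratios of 3.33 (2.47 to 4.40) in the S1pr2fl/fl and 1.58 (0.819 to 2.78) in the S1pr2fl/fl K14-Cre section. Myh11, smooth muscle myosin, had 3.81 (2.65 to 5.37) and 1.85 (0.817 to 3.67), and Tagln 4.03 (3.12 to 5.16) and 1.51 (1.06 to 2.10). Lymphatic genes gave only 3 and 4 UMIs in the mast cell spots. Haemoglobin and erythroid genes were 2.45-fold (2.27 to 2.65) and 4.77-fold (4.06 to 5.59) higher, but 67.9% and 89.9% of their UMIs lay in 5 of the 60 spots. Without the 5 mast cell and 5 remaining spots with most haemoglobin, a comparison added after these values were seen, the ratios were 1.11 and 0.703. Against touching spots the S1pr2fl/fl direction turned, with 3368 CPM in the mast cell spots and 4355 CPM at 1 step. In the S1pr2fl/fl K14-Cre section these levels were 1337 and 506 CPM.

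Keratinocyte genes were lower in mast cell spots. Those of differentiated keratinocytes had ratios of 0.362 (0.349 to 0.375) and 0.306 (0.279 to 0.334), and all 8 members with at least 100 UMIs were at most 0.5-fold in both sections, where 7.68% and 13.5% of all genes were. Genes of basal keratinocytes had ratios of 0.430 (0.410 to 0.450) and 0.300 (0.272 to 0.330). Krt15 was the exception, at 0.431 (0.290 to 0.618) in the S1pr2fl/fl and 1.25 (0.858 to 1.76) in the S1pr2fl/fl K14-Cre section. The neutrophil list was at 0.430 (0.406 to 0.455) and 0.301 (0.25 to 0.360), and this was set by S100a8 and S100a9, which inflamed keratinocytes also express. Csf3r, the G-CSF receptor of neutrophils, was at 2.47 (1.58 to 3.71) and 1.72 (0.608 to 3.96), on 26 and 6 UMIs. T cell genes were at 0.414 (0.225 to 0.699) in the S1pr2fl/fl section, on 14 UMIs, and at 0.925 (0.580 to 1.41) in the S1pr2fl/fl K14-Cre section, on 23 UMIs. The S1pr2fl/fl direction turned when spots were ranked by summed UMIs (1.03). Skeletal muscle genes were at 0.791 (0.764 to 0.819) and 0.890 (0.871 to 0.910). Within each group of touching spots of the S1pr2fl/fl section their ratio was above 1 (1.08 and 1.34), opposite to the direction over the whole section. The direction also turned with 100 spots (1.04) and when ranked without Mcpt4 (1.16) in the S1pr2fl/fl section, and without Mcpt4 (1.10) in the S1pr2fl/fl K14-Cre section.

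**Figure D4:**
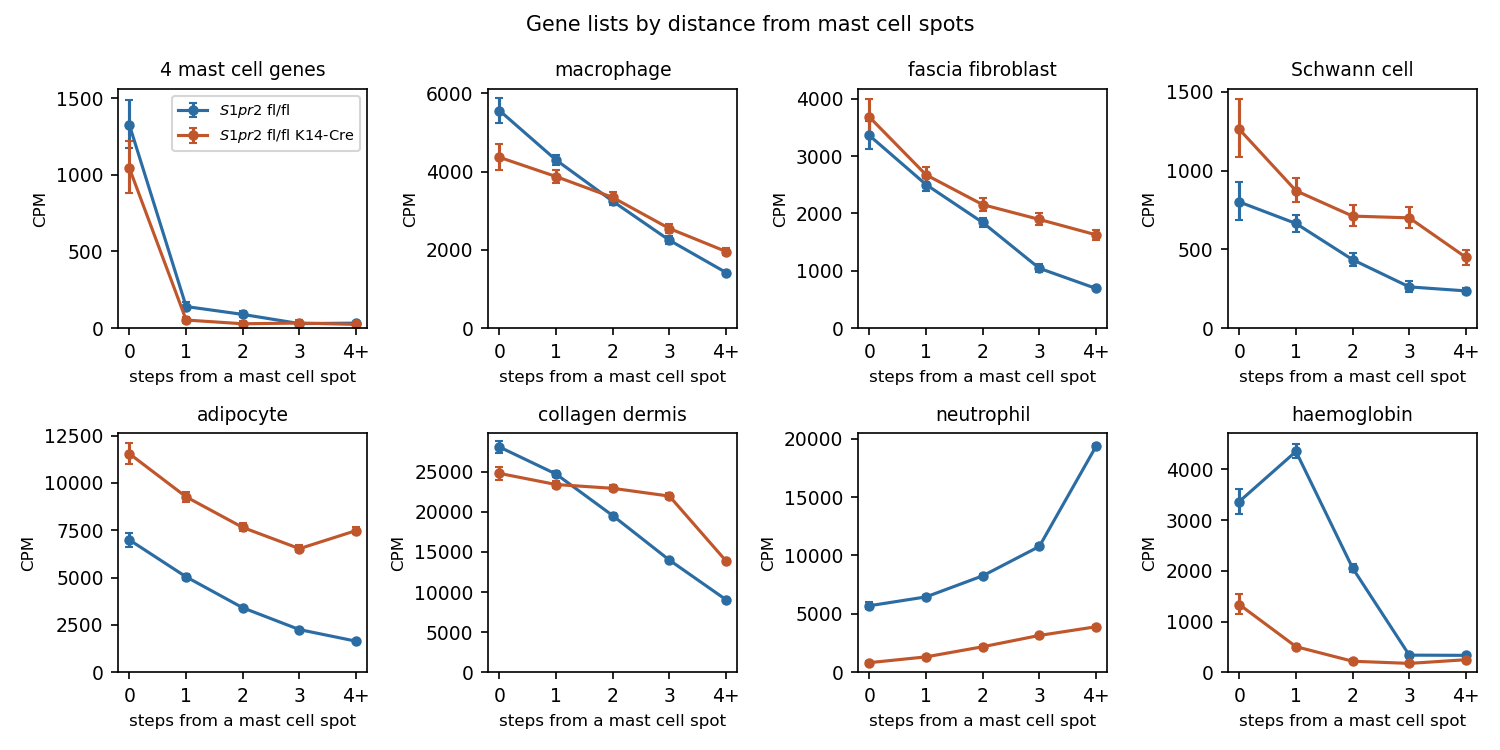
CPM of 8 lists of genes in the mast cell spots (0 steps) and in spots 1, 2, 3 and 4 or more steps away on the array, with exact Poisson 95% intervals; each panel has its own y axis from 0. Blue is S1pr2fl/fl and orange S1pr2fl/fl K14-Cre. The drop of the 4 ranking genes within 1 step is set by the ranking. Macrophage genes are lower at each step, from 5562 to 1420 CPM and from 4366 to 1958 CPM. The neutrophil list, mostly S100a8 and S100a9, runs the other way.

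Fascia genes were likewise at 3359 CPM in the mast cell spots and 691 CPM at 4 or more steps in the S1pr2fl/fl section, and at 3681 and 1627 CPM in the S1pr2fl/fl K14-Cre section. Schwann cell genes were at 801 and 236 CPM and at 1263 and 449 CPM. The neutrophil list, by contrast, was 5697 CPM in the S1pr2fl/fl mast cell spots and 19328 CPM at 4 or more steps, and 826 and 3899 CPM in the S1pr2fl/fl K14-Cre section. Most UMIs of this list were of S100a8 and S100a9, which inflamed keratinocytes also express.

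Genes of S1P signalling were not higher as a group, with ratios of 0.888 (0.728 to 1.07) and 1.15 (0.859 to 1.51) over 9 genes. S1pr2, the deleted receptor, had 8 UMIs in the S1pr2fl/fl mast cell spots, or 37.3 CPM, against 28.7 CPM in the remaining spots (ratio 1.30, 0.551 to 2.63). It had 0 UMIs in the S1pr2fl/fl K14-Cre mast cell spots, which allows up to 24.8 CPM, against 20.1 CPM in the remaining spots (upper limit of the ratio 1.28). Over all kept spots S1pr2 was at 29.0 CPM (24.6 to 34.0) and 19.0 CPM (14.3 to 24.8). Whether its probes lie in the deleted part is not given in the sources used here, so these counts do not check the deletion. S1pr3, a further S1P receptor, was the only 1 of the 9 genes with both intervals above 1, at 2.95 (1.22 to 6.16) and 2.44 (1.12 to 4.74). Of all genes with at least 10 UMIs, 1.75% had both intervals above 1. The counts of S1pr3 were low, with 8 UMIs in 8 mast cell spots and 10 UMIs in 4. S1pr1, the receptor of lymphocyte egress and endothelium, had 10 UMIs (1.65, 0.774 to 3.12) and 7 UMIs (1.54, 0.601 to 3.32). The transporter Spns2, which exports S1P, was at 0.598 (0.363 to 0.929) and 0.547 (0.147 to 1.43).

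Cytokines that mast cells make or respond to had summed ratios of 1.22 (0.953 to 1.54) and 0.722 (0.476 to 1.05) over 10 genes. Tnf had 3 UMIs (2.14, 0.420 to 6.83) and 6 UMIs (3.74, 1.27 to 9.16). The chemokine gene Ccl2 had 5 UMIs (6.55, 1.90 to 18.3) in the S1pr2fl/fl and 1 UMI (0.860, 0.0208 to 5.35) in the S1pr2fl/fl K14-Cre mast cell spots. Il33, an alarmin of keratinocytes and stroma that activates mast cells, was at 1.21 (0.828 to 1.70) and 0.299 (0.0611 to 0.889). Il4, Il13 and Il6 had at most 3 UMIs each in the mast cell spots of either section.

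Over all 5653 genes, ratios in the 2 sections were weakly related (Spearman's rho 0.263, Pearson's r 0.278 of log2 ratios, across genes, which are not independent). At least 2-fold higher in both sections were 60 genes (1.06%), which is 15.2% of the 395 of the S1pr2fl/fl section and 20.5% of the 293 of the S1pr2fl/fl K14-Cre section. At most 0.5-fold in both were 145 genes (2.57%). Genes were named by the less extreme of the ratios of both sections.

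Of the genes named here among the 15 highest, Cd163 belongs to the macrophage list and Hba-a2 to the haemoglobin list, and the others to none of the lists. Fcna, the lectin ficolin A, led with ratios of 3.04 (1.92 to 4.62) and 3.64 (25 UMIs in the mast cell spots of each section). Cd209g, a C-type lectin, followed with 2.63 and 2.94, Cfb, complement factor B, with 2.59 and 2.92, and Cd163 with 2.56 and 2.52. Cmklr1, the chemerin receptor of macrophages, reached 2.74 and 2.44, and Nfam1, an activating receptor of myeloid cells, 3.34 and 2.56. Igfbp4, a binding protein of insulin-like growth factors, had 3.14 and 2.48. Fgf7, the keratinocyte growth factor that fibroblasts secrete, had 2.82 and 2.39, and Efemp2, an elastic fibre protein, 2.39 and 2.53. Hba-a2 (2.80 and 4.29) is an α-globin gene and belongs to the haemoglobin signal of a few spots. Cdc42ep2, Hebp1, Cul7 and Islr were also among the 15.

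None of the 10 lowest belongs to the lists of genes. Wfdc5 had 3 UMIs in the mast cell spots against 474 in the remaining spots (0.149, 0.0307 to 0.439) of the S1pr2fl/fl section and 0 against 104 in the S1pr2fl/fl K14-Cre section. Serpinb12 had 13 against 1204 UMIs (0.255, 0.135 to 0.437) and 1 against 99. Pou3f1, a transcription factor of keratinocytes and myelinating Schwann cells, had 3 against 305 (0.232, 0.0475 to 0.684) and 1 against 111. Plch2 had 2 against 327 and 1 against 140, and Tmem125 5 against 573 and 1 against 132. Usp20, Hes6, Alkbh1, Podxl2 and Ston2 had 0 to 2 UMIs in the mast cell spots of each section. With counts this low the upper limit of the S1pr2fl/fl ratio was 1.10 for Hes6 and 1.30 for Alkbh1 and Podxl2, and that of the S1pr2fl/fl K14-Cre ratio 1.02 for Usp20 and 1.04 for Serpinb12.

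**Figure D5:**
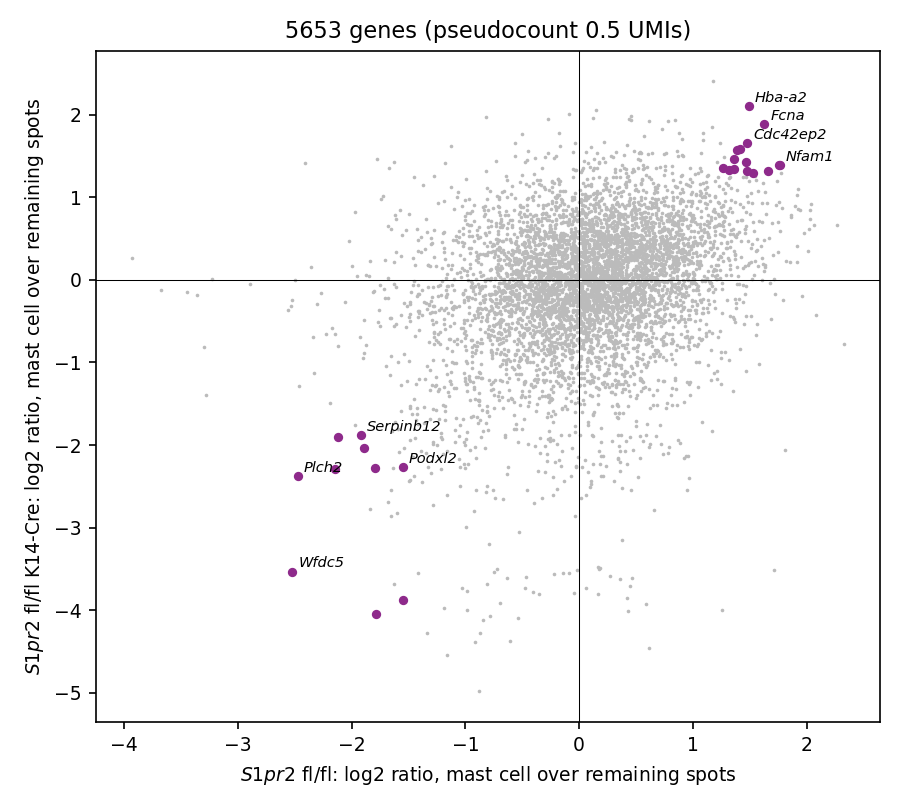
Each grey point is 1 of 5653 genes, with the log2 ratio of CPM in the mast cell spots over the remaining spots of the S1pr2fl/fl section on the x axis and of the S1pr2fl/fl K14-Cre section on the y axis (0.5 UMIs added to each count). Purple points are the 15 highest and 10 lowest genes by the less extreme ratio, some with their names. Most genes lie near 0 on both axes, and the named genes lie apart at the upper right and the lower left.

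Between the sections, the 4 ranking genes were at 113 CPM (104 to 123) over all kept spots of the S1pr2fl/fl section and 86.4 CPM (75.9 to 97.9) over those of the S1pr2fl/fl K14-Cre section, a log2 ratio of -0.39 (-0.61 to -0.17). These 2 libraries differed beyond counting error, but by less than the 74.4 and 186 CPM of the groups of touching spots of the S1pr2fl/fl section differed from each other. Whether the spots of both groups come from the same mouse and skin site is not given in the sources used here. The mast cell genes outside the ranking summed to 1497 and 1565 CPM, a log2 ratio of 0.06 (0.01 to 0.12), whose direction turned with the scaling. The TMM factor, which scales on most genes in place of all UMIs, shifts every log2 ratio between the sections by -0.37. With it the ratio of these genes was -0.31 (-0.36 to -0.25) and that of the 4 ranking genes -0.76 (-0.98 to -0.54). Fewer mast cells and less RNA per mast cell cannot be told apart in such sums. Cma1 was lower in the S1pr2fl/fl K14-Cre library (-0.77, -1.12 to -0.43), Mcpt4 (-0.34, -0.77 to 0.07) and Cpa3 (-0.20, -0.91 to 0.47) were within counting error, as was Tpsb2 (0.38, -0.15 to 0.90). With the TMM factor Mcpt4 was also lower beyond counting error (-0.71, -1.14 to -0.30), and Tpsb2 was at 0.01 (-0.52 to 0.53). By depth and without the TMM factor, the ratio of S1pr2fl/fl K14-Cre over S1pr2fl/fl was 1.04 (0.597 to 1.75) in the band next to the epidermis and 1.37 (0.993 to 1.89) and 0.893 (0.650 to 1.22) in the next bands. It was 0.369 (0.266 to 0.504) and 0.441 (0.298 to 0.639) in both deep bands. The chemosensory receptor genes were, in sum, 2.70-fold (2.64 to 2.75) higher in the S1pr2fl/fl K14-Cre library, and their part in these ratios was not tested. Tissue make-up differed as well. In the remaining spots skeletal muscle genes were at 19357 CPM in the S1pr2fl/fl and 63282 CPM in the S1pr2fl/fl K14-Cre section. Differentiated keratinocyte genes were at 38444 and 10868 CPM. Over all kept spots the ratio of S1pr2fl/fl K14-Cre over S1pr2fl/fl was 0.204 for the neutrophil and 0.231 for the haemoglobin list. S100a8 and S100a9, which inflamed keratinocytes also express, held 29506 and 38255 of the 68219 UMIs of the neutrophil list in the S1pr2fl/fl section. They held 4962 and 2332 of 7490 in the S1pr2fl/fl K14-Cre section, so this ratio is not a measure of neutrophils. The part of this make-up was not tested. Genotype, mouse, section and library cannot be told apart here.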

How the data were processed

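Probe-based spatial transcriptomes (10x Genomics Visium CytAssist) of 2 skin sections were analysed. The deposited matrices of the authors hold unnormalized UMI counts of each gene in each spot over tissue, beside spot positions; Space Ranger 3.0.0 and mm10 are named in the file header and the submitters' processing notes. Symbols are those of the files (19465 genes, of which 11 symbols occur more than once).

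UMIs were summed over spots and divided by all UMIs of those spots (CPM). The sections held 5315351 and 2845826 UMIs, and 186 and 34 spots under 500 UMIs were left out. With 1 section per genotype no test was run. The members and the lists of genes were chosen with earlier results of these data known. Named genes were those of the ranking, those of the mast cell and S1P lists with at least 10 UMIs, and the 15 highest and 10 lowest of the genes with at least 100 UMIs in each section. Any other gene was chosen after its values were seen. The intervals were tested on simulated data, and the outcome is not reported here. Alternatives changed the number of spots, the minimum of UMIs, the ranking genes, the comparison spots, the scaling (TMM, edgeR 4.0.16, R 4.3.3) and the edges used for depth. Array columns, planned as a second measure of depth, did not run from epidermis to muscle in the S1pr2fl/fl section and were used in the S1pr2fl/fl K14-Cre section only. Python 3.11.15, numpy 2.4.6, scipy 1.17.1 and pandas 2.3.3 were used. Both sections share 357 barcodes, which are array positions and not shared cells. Some genes of the lists are not reported here.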

Additional observations from a re-analysis of the deposited data

Results flagged for a closer look

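MHC class II genes differed in direction between the sections. The list was at 1.15 (1.04 to 1.28) in the S1pr2fl/fl mast cell spots against the remaining spots and at 0.823 (0.702 to 0.959) in the S1pr2fl/fl K14-Cre mast cell spots, and the intervals lay on opposite sides of 1. The difference was not tested, since there was 1 section per genotype. In the S1pr2fl/fl K14-Cre section the direction depended on the ranking, with a log2 ratio of 0.10 when ranked without Cma1 and 0.18 by summed UMIs. Cd74, the invariant chain, set most of it, with 1.13 (0.987 to 1.29) and 0.773 (0.630 to 0.939).

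Transcripts of the 4 ranking genes were also found in spots left out for having fewer than 500 UMIs. In the S1pr2fl/fl section such spots held 10 UMIs, in 6 of 186 spots, or 246 CPM (118 to 452), and in the S1pr2fl/fl K14-Cre section 1 UMI, or 110 CPM (2.78 to 611).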

How the results depend on the processing

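No paired analysis was possible because there was 1 section per genotype, and no section could be left out in turn for the same reason. Of the main values recomputed, 99 stayed and 29 moved; of the values of single lists and genes 231 stayed, 164 moved and 12 turned. A ratio or depth was counted as moved when it left its counting interval, however small the change, and a count or share when it changed by over 1.5-fold.

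The log2 ratio of the other mast cell genes stayed above 0 in both sections. In the S1pr2fl/fl section (0.69) it was 0.54 when ranked without Mcpt4, 0.29 against touching spots, 0.46 at matched depth, 0.56 as a mean over spots, and 1.53 with the 17 genes known mainly from mast cells and basophils, a list made after seeing the data. It was 0.39 in the S1pr2fl/fl K14-Cre section, and 0.15 without Mcpt4, 0.15 against touching spots, 0.19 at matched depth and 0.75 with the 17 genes. The chemosensory receptor genes were at 0.23 in the main comparison of this section. The values without Mcpt4, against touching spots and at matched depth lay below that. The excess of the median depth quotient in the S1pr2fl/fl section (0.247) was 0.139 when spots were ranked by summed UMIs.

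The share of genes at least 2-fold higher in the S1pr2fl/fl section (6.99%) was 10.8% with 30 spots, 4.60% by summed UMIs, 2.14% against touching spots, 2.03% at matched depth and 24.9% with no minimum of UMIs per gene. For the S1pr2fl/fl K14-Cre section (5.18%) it was 11.3% with 30 spots, 2.41% with 100 spots, 2.99% by summed UMIs, 8.56% and 2.41% at minimums of 50 and 200 UMIs and 22.4% with none. For both sections (1.06%) it was 2.03% with 30 and 0.548% with 100 spots, 0.301% by summed UMIs, 0.159% against touching spots, 0.106% at matched depth, 1.76% at 50 UMIs and 8.83% with no minimum. Between the sections the log2 ratio of the 4 genes was -0.76 with the TMM factor, and that of the mast cell genes outside the ranking, rescaled after seeing the data, turned from 0.064 to -0.31.

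Log2 ratios that turned were, in the S1pr2fl/fl section, haemoglobin -0.37 against touching spots, skeletal muscle 0.063 with 100 spots, 0.21 without Mcpt4 and 0.11 and 0.43 within the larger and smaller group of touching spots (chosen after seeing the data), and T cell genes 0.049 by summed UMIs. Those of the S1pr2fl/fl K14-Cre section were collagen -0.081 at matched depth, haemoglobin -0.51 without its richest spots, skeletal muscle 0.13 without Mcpt4, and MHC class II 0.10 without Cma1 and 0.18 by summed UMIs. The cause was not tested. The limits are few UMIs per mast cell spot, spots that mix cell types, and 1 section per genotype.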
